A study of Mus musculus with 24 samples.

Results

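The 16 neuroblastoma tumors of 2 transgenic mouse models were divided by their own level of Th, the gene of tyrosine hydroxylase, to describe which genes varied with it inside each model. Within the 8 TI tumors and separately within the 8 TIM tumors, the 4 tumors with the highest Th FPKM (read fragments scaled to the length of the gene and to a normalized library size) formed the Th-high side and the 4 with the lowest the Th-low side, which gave 8 Th-high and 8 Th-low tumors out of 24 libraries in the series. TI tumors arose in mice with an IGF2BP1 transgene (IGF2BP1 +/+, CRE + in 7 samples and IGF2BP1 +/-, CRE + in 1), and TIM tumors in mice labelled IMP1/MYCN, CRE +. Per the paper, TIM mice had an IGF2BP1 and a MYCN transgene and no wildtype Rosa26 locus. MYCN thus took the place of 1 IGF2BP1 copy of the IGF2BP1 +/+ mice, and the models differed in IGF2BP1 dose as well as in MYCN. Both transgenes were placed in the Rosa26 locus behind a stop cassette and were switched on by an iCre driven by Dbh, so that recombination was directed to dopamine beta-hydroxylase expressing cells of the sympatho-adrenal lineage; the IGF2BP1 transgene did not carry its own 3' untranslated region. Frozen tissue was measured by poly(A)-selected, strand-specific RNA-seq. The source labels read tumor for 7 TI and 5 TIM samples, tumor adrenal gland for 1 TI and 2 TIM samples, and tumor spine for 1 TIM sample. Ages, and whether any tumors shared an animal, were not given in the labels used here, so p-values measure the spread between these samples. Adrenal glands of Cre-negative mice (AG, CRE -, n = 3) and of mice with the MYCN transgene alone (AGM, MYCN +/-, CRE +, n = 5) served as background.

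Tyrosine hydroxylase converts tyrosine to L-DOPA and is the rate-limiting enzyme of catecholamine synthesis. Aromatic L-amino acid decarboxylase (Ddc) then makes dopamine, dopamine beta-hydroxylase (Dbh) makes noradrenaline inside vesicles, and phenylethanolamine N-methyltransferase (Pnmt) makes adrenaline in chromaffin cells of the adrenal medulla. Catecholamines are loaded into dense-core granules with chromogranins and neuropeptides. Neuroblastoma arises from the same lineage and usually retains parts of this programme.

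Th, ENSMUSG00000000214 on chromosome 7 (142443466 to 142484865, minus strand, GRCm39), chose the sides and is given as a description without a test. The Th-high TI tumors held 235.1, 180.7, 104.6 and 101.3 FPKM, and the Th-low TI tumors held 90.03, 74.0, 21.5 and 18.1 FPKM. The Th-high TIM tumors held 1889, 1514, 998.5 and 408.5 FPKM, and the Th-low TIM tumors held 356.8, 290.5, 25.1 and 11.8 FPKM. Tumors are numbered below by falling Th within each model, so TI-1 to TI-4 and TIM-1 to TIM-4 are Th-high and TI-5 to TI-8 and TIM-5 to TIM-8 are Th-low. The border was narrow in both models, at 101.3 against 90.03 FPKM in TI and 408.5 against 356.8 FPKM in TIM, whereas the tumors of rank 7 and 8 lay far below the rest. Th was 9.72 to 15.6 FPKM in AG and 158.6 to 269.2 FPKM in AGM. TI-7, TI-8, TIM-7 and TIM-8 were nearest to AG, and TIM-1 to TIM-6 lay above every AGM gland. A high level in TI was low by the standard of TIM, so all comparisons kept the model as a covariate.

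The sympatho-adrenal label held in every tumor. Hand2, a transcription factor of this lineage, was 29.1 to 64.8 FPKM in the tumors and 5.51 to 25.1 FPKM in the glands. It did not differ between the sides past the threshold. The mouse gene Igf2bp1 was listed at 0 to 0.0796 FPKM in the tumors (exact two-sided permutation p = 0.584 between the sides, with sides permuted within each model, adjusted p = 0.618 over 18 genes).

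The Th promoter is shown because it holds the cAMP response element, a sequence through which cAMP and calcium signals are known to act on this gene, and Chgb, encoding chromogranin B, because it is a granule gene with the full element. The element is written TGACGTCA, reads the same on both strands, and is in capitals. The windows run 5' to 3' on the strand of the gene, come from RefSeq promoter sequences (250 bases before to 50 after the start) and were placed on GRCm39 by a single exact match. The Th window is chr7:142453759-142453788 on the minus strand with the element from position -45 relative to the start, and the Chgb window is chr2:132623479-132623508 on the plus strand with the element from position -72. Both positions are relative to the RefSeq start. For Th this start lies inside the longer gene span given above, which comes from a different annotation.
Th: cagaggggcttTGACGTCAgcctggccttt
Chgb: gggctgctccgTGACGTCAgggctgagcga
The full element was in 1.88% of the 27025 promoters, taking 1 window per gene. Among tested genes with a window it was in 233 of 6422 (3.63%), among genes called higher in Th-high tumors in 17 of 444 (3.83%) and among genes called lower in 16 of 481 (3.33%). The shares among genes that differed in either direction lay next to that of the tested genes as a whole. Among tested dense-core granule genes it was in 2 of 13 windows, those of Chgb and Scg2, and among tested genes of catecholamine synthesis and breakdown in 0 of 7. The windows of Pnmt and Vgf were not analysed here.

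Of 8063 genes tested in the 16 tumors, 1143 (14.2%) differed between Th-high and Th-low tumors at a false discovery rate (FDR) below 0.05 by limma on log2(FPKM + 1) with Benjamini-Hochberg adjustment. 547 (6.78%) were higher and 596 (7.39%) were lower in Th-high tumors, and 191 of them differed by at least 1 on the log2 scale. An unadjusted p below 0.05 was reached by 2560 genes (31.7%). The median difference over all tested genes was 0.017. Over the 16 tumors, 6 of 10 tested genes of catecholamine synthesis and breakdown, 9 of 18 of dense-core granules and 3 of 10 of neuropeptides were higher in Th-high tumors, and 69 of 78 tested S and G2/M phase genes of the cell cycle were lower. The number of calls depended on TIM-7 and TIM-8, the tumors with the least Th in that model. Without both of them no gene passed by limma (smallest FDR 0.0844), while 1688 genes (20.9%) had an unadjusted p below 0.05 and the median kept its sign in every gene list with a tested gene. Without TIM-7 alone 324 genes passed and without TIM-8 alone 585.

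Within TI alone no gene passed by limma (n = 4 against 4), although 722 genes (8.95%) had an unadjusted p below 0.05. Within TIM 1166 genes (14.5%) passed, 779 (9.66%) higher and 387 (4.8%) lower in Th-high tumors, and 2550 (31.6%) had an unadjusted p below 0.05. These unequal counts are no test of a difference between the models. A test of the difference itself called 15 genes (0.186%), all with a larger value in TIM, with 650 (8.06%) at an unadjusted p below 0.05. Among the 15, Ankrd2, Grin2a and Kif17 entered the test only through the Th-high TIM tumors, in which they are high. The count and its direction are therefore a description, and with a pseudocount of 0.1 the count was 2. With 4 tumors per side and model, few calls in that test cannot show that the models are alike. Across genes, which are not independent replicates, the TI and TIM differences had a Pearson r of 0.52, and 71.9% of the tested genes had the same sign in both models, which share no tumor. The TIM difference was the larger in absolute size for 976 of the 1143 called genes. The share over all tested genes was not computed, so this count does not set the called genes apart. Th itself also differed more between the sides in TIM (means of 1203 against 171 FPKM) than in TI (155 against 50.9 FPKM).

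**Figure D1:**
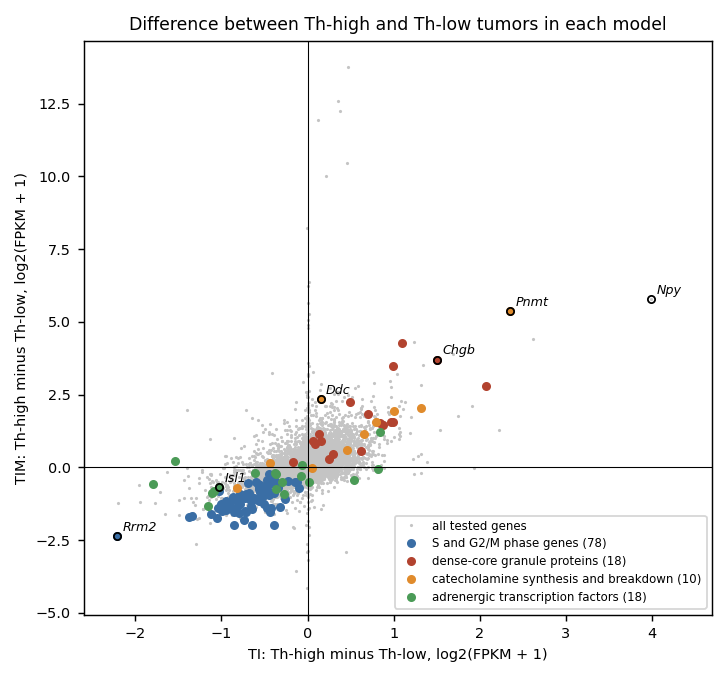
Difference between Th-high and Th-low tumors on the log2(FPKM + 1) scale in TI (horizontal axis) and TIM (vertical axis) for the 8063 tested genes, each a point, with 4 gene lists in colour. The S and G2/M phase genes lie at the lower left, below 0 in both models, and Pnmt, Npy and Chgb in the upper right.

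Of the enzymes that make or break down catecholamines, 6 of 10 tested genes were higher in Th-high tumors, 1 was lower and 3 did not pass (background 6.78% higher). The list median was 1.04 on the log2 scale, with 0.56 in TI and 1.36 in TIM. Pnmt, ENSMUSG00000038216 on chromosome 11 (98277276 to 98279032, plus strand), showed the largest difference of the list. Pnmt was 28.8, 3.55, 9.34 and 0.00713 FPKM in TI-1 to TI-4 and 0.901, 0.0203, 0.0519 and 0.00899 FPKM in TI-5 to TI-8. It was 60.4, 76.8, 203.6 and 19.8 FPKM in TIM-1 to TIM-4 and 0.932, 0, 0.512 and 1.42 FPKM in TIM-5 to TIM-8. The sides did not overlap in TIM, and in TI the tumor TI-4 was the exception. The pooled difference was 3.86 ± 0.66 (log2, SE, n = 8 against 8, limma FDR 0.0113). TIM-8 was the only Th-low tumor at 1 FPKM or more, so the minimum level admitted Pnmt only through the Th-high side. Its difference and its place among the 6 higher genes are therefore a description. AGM glands held 191.9 to 391.9 FPKM and AG held 1.07 to 2.01 FPKM.

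Dbh was 246.0, 106.0, 78.2 and 96.2 FPKM in TI-1 to TI-4 and 97.6, 68.2, 33.9 and 21.5 FPKM in TI-5 to TI-8. In TIM it was 593.4, 446.4, 165.7 and 95.9 FPKM in the Th-high and 116.4, 102.1, 58.9 and 18.8 FPKM in the Th-low tumors. The highest values lay on the Th-high side of each model and the lowest on the Th-low side, but the tumors next to the border overlapped. The difference was 1.68 ± 0.46 (log2, SE; limma FDR 0.0277). Dbh regulatory sequence also drives the Cre of these mice, and recombination was not measured here.

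Ddc stood apart from the other enzymes. It was 13.6 to 32.0 FPKM in all 8 TI tumors and 19.3 to 37.8 FPKM in TIM-1 to TIM-6, but 1.26 in TIM-7 and 0.271 in TIM-8. The difference of 1.25 ± 0.56 did not pass (limma FDR 0.137), and without these 2 tumors it was 0.29. Ddc passed by limma when all 24 libraries set the spread (FDR 0.0351), with Th as a continuous covariate (FDR 0.000163) and with array weights (FDR 0.0449). The genes around the cofactor tetrahydrobiopterin were higher: Gch1, which starts its synthesis, by 1.46 ± 0.38 (FDR 0.0232), Pcbd1 by 1.18 ± 0.29 (FDR 0.0209) and Qdpr, which recycles it, by 0.91 ± 0.20 (FDR 0.0152), each by limma. Spr, the last enzyme of its synthesis, was close to equal (0.01, FDR 0.961). Maoa, which oxidizes monoamines, was lower: 2.60, 5.63, 3.75 and 3.93 FPKM in TI-1 to TI-4 against 7.22, 7.01, 7.34 and 8.91 FPKM in TI-5 to TI-8, with a difference of -0.77 ± 0.18 over the 16 tumors (limma FDR 0.018). Maob did not pass.

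Of 5 tested genes of catecholamine storage and uptake, 3 were higher and 2 did not pass (background 6.78% higher). Slc18a1 and Slc18a2, the vesicular monoamine transporters, differed by 1.09 ± 0.28 and 1.28 ± 0.33, and Cyb561, which brings electrons into the granule for Dbh, by 1.69 ± 0.51 (limma FDR 0.0237, 0.0233 and 0.0372). Slc18a2 was 28.3, 23.7, 12.9 and 16.04 FPKM in the Th-high and 6.94, 12.6, 2.27 and 2.53 FPKM in the Th-low TIM tumors. Slc6a2, the noradrenaline transporter of the plasma membrane, differed by -0.20 (FDR 0.728).

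**Figure D2:**
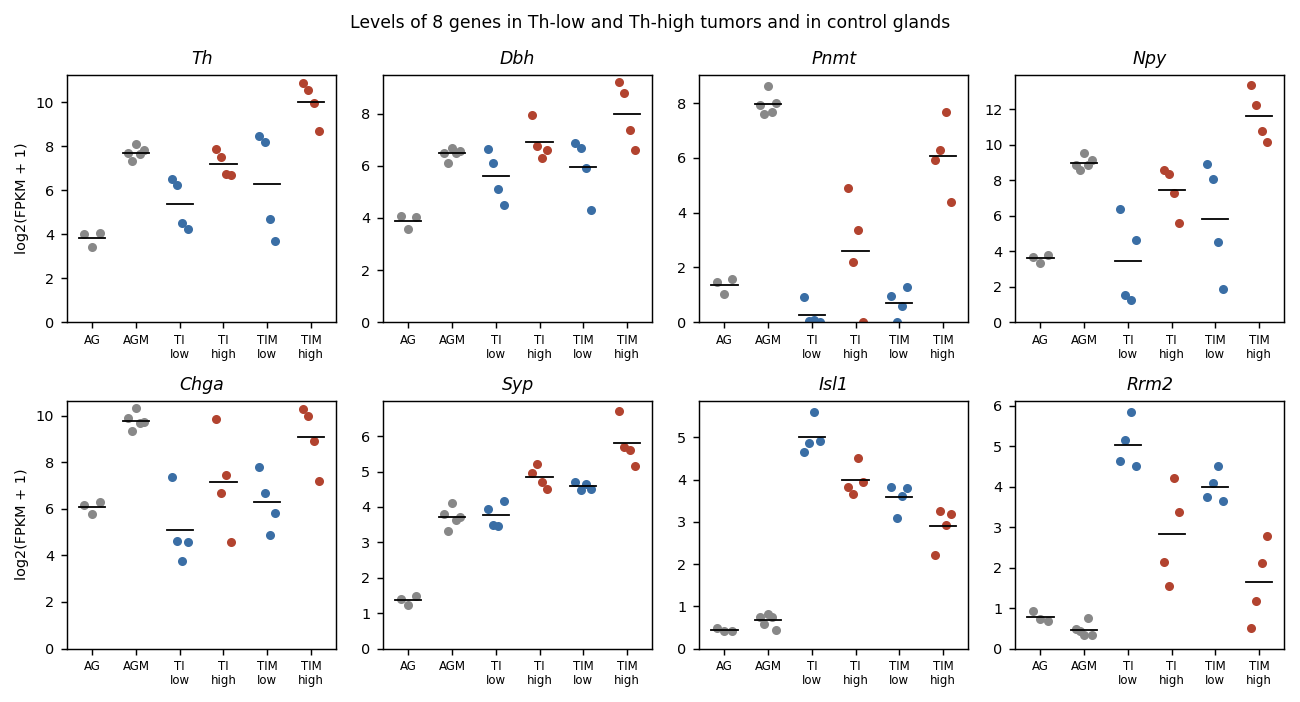
Levels of Th, Dbh, Pnmt, Npy, Chga, Syp, Isl1 and Rrm2 as log2(FPKM + 1) on the vertical axis in AG and AGM glands (grey) and in Th-low (blue) and Th-high (red) TI and TIM tumors. Each point is a library and each line a group mean; Syp does not overlap between the sides of either model, and Isl1 and Rrm2 run opposite to Th.

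Of 18 tested genes of dense-core granule proteins, 9 were higher, none was lower and 9 did not pass (background 6.78% higher); the median was 1.18, with positive values for 17 of 18 genes in TI and 18 of 18 in TIM. Chgb was 187.3, 13.6, 42.4 and 32.4 FPKM in TI-1 to TI-4 and 40.8, 18.9, 5.29 and 10.96 FPKM in TI-5 to TI-8. In TIM it was 805.1, 400.0, 94.3 and 114.1 FPKM on the Th-high and 41.8, 13.6, 9.70 and 17.6 FPKM on the Th-low side, without overlap. The difference was 2.60 ± 0.62 (limma FDR 0.0188). Chga, encoding chromogranin A, was 926.0 FPKM in TI-1 but 23.2 FPKM in TI-4, below 165.3 FPKM in TI-5, and differed by 2.43 ± 0.71 (limma FDR 0.0333) with overlap in both models.

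Some processing enzymes and other granule proteins were also among the 9. Cpe, which trims prohormones, differed by 1.26 ± 0.25 (FDR 0.013), Pam, which amidates peptides, by 1.27 ± 0.33 (FDR 0.0231), and Ptprn, a membrane protein of the granule, by 2.24 ± 0.48 (FDR 0.0145), each by limma. Vgf, a granin-like precursor, was 468.9, 182.8, 254.8 and 156.3 FPKM in TIM-1 to TIM-4 and 37.0, 3.18, 15.7 and 8.50 FPKM in TIM-5 to TIM-8, and 0.983 to 7.61 FPKM in TI. Its difference was 4.27 in TIM and 1.09 in TI, and the test between the models did not pass (limma FDR 0.157). Scg2, Scg3, Pcsk2, Rab3a, Syt4, Syt7, Cadps and Ptprn2 did not pass.

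Among 10 tested neuropeptides, 3 were higher and 7 did not pass (background 6.78% higher). Npy, neuropeptide Y, on chromosome 6 (49799026 to 49806489, plus strand), showed the largest difference of the lists of lineage genes. It was 376.2, 324.5, 154.3 and 48.0 FPKM in TI-1 to TI-4 and 83.2, 1.95, 1.39 and 24.1 FPKM in TI-5 to TI-8. In TIM-1 to TIM-8 it ran 10490, 4837, 1725, 1130, 486.7, 268.1, 21.8 and 2.65 FPKM, in the same order as Th. The difference was 4.88 ± 0.99 (limma FDR 0.0137). Npy exceeded 1000 FPKM, as did some genes whose values in TIM and AGM libraries reached extreme levels in the deposited table. Gal, galanin, was higher by 1.75 ± 0.52 (FDR 0.0363) and Penk, proenkephalin, by 0.94 ± 0.28 (FDR 0.0341). Vip did not pass; its value within TIM (-2.90) came with 35.9 FPKM in TIM-7 and 87.5 FPKM in TIM-8 and at most 0.307 FPKM in the other TIM tumors, and without TIM-7 and TIM-8 all 10 neuropeptides had a positive difference. Vip is known to mark cholinergic rather than noradrenergic sympathetic neurons. Of 5 tested cholinergic genes, Ache, which degrades acetylcholine, was higher by 1.003 ± 0.317 (limma FDR 0.0446, background 6.78% higher). Slc18a3, Chrna3, Chrnb2 and Slc44a1 did not pass.

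Synaptophysin (Syp), a membrane protein of small vesicles used as a neuroendocrine marker, was separated by side in both models. It was 29.8, 35.8, 24.9 and 21.8 FPKM in the Th-high and 14.4, 10.3, 9.98 and 17.0 FPKM in the Th-low TI tumors. The Th-high TIM tumors held 104.7, 50.9, 48.2 and 35.0 FPKM and the Th-low TIM tumors 24.9, 21.2, 24.3 and 21.6 FPKM. The sides did not overlap in either model, which held for 36 of the 8063 tested genes in this direction (0.446%). The difference was 1.15 ± 0.20 (limma FDR 0.0113), and 1.13 without TIM-7 and TIM-8.

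**Figure D3:**
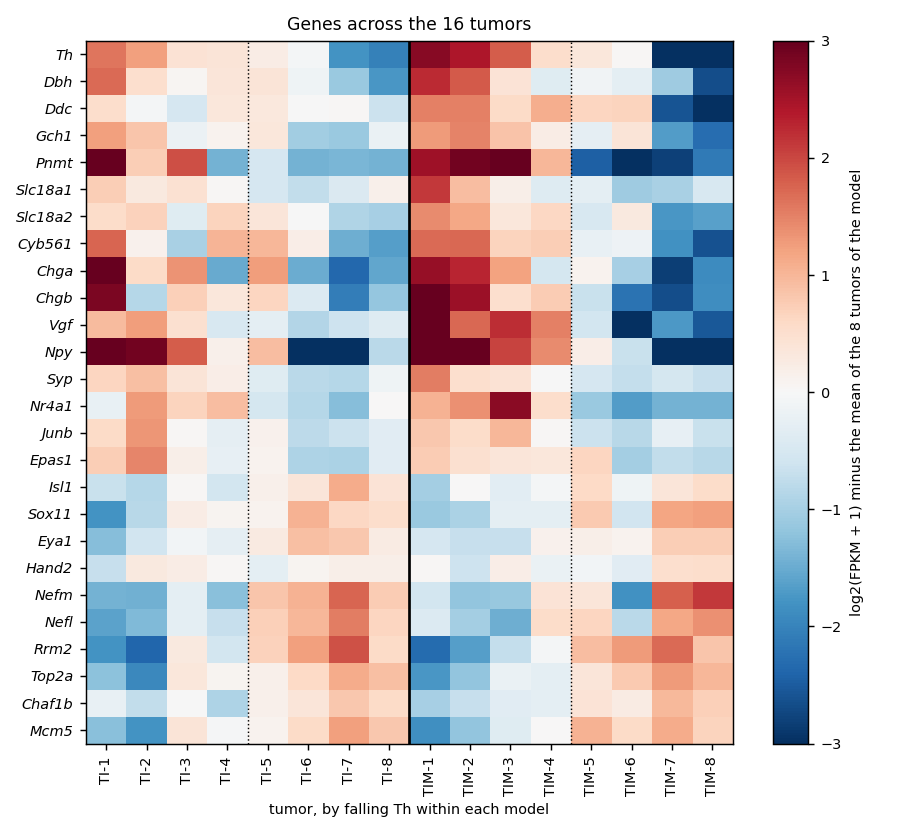
Level of genes of several lists in the 16 tumors, ordered from left to right by falling Th within TI and within TIM; colour gives log2(FPKM + 1) minus the mean of the 8 tumors of the model. Catecholamine and granule genes (top) are high in the left part of each model, and neurofilament and cell cycle genes (bottom) in the right part.

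The transcription factors of the adrenergic core circuitry, which hold neuroblastoma cells in their noradrenergic identity, did not follow Th upward. Of 18 tested factors none was higher, 5 were lower in Th-high tumors and 13 did not pass (background 7.39% lower); the median was -0.41. Isl1, a LIM homeobox factor, was 13.1, 11.6, 22.01 and 14.3 FPKM in TI-1 to TI-4 and 24.2, 28.2, 47.8 and 29.1 FPKM in TI-5 to TI-8, without overlap. The TIM tumors held 3.68, 8.52, 6.56 and 8.07 FPKM on the Th-high and 13.3, 7.58, 11.2 and 12.9 FPKM on the Th-low side, where TIM-6 overlapped. The difference was -0.86 ± 0.20 (limma FDR 0.0172). Sox11 (-1.24 ± 0.30), Eya1 (-0.99 ± 0.19) and Sox4 (-0.96 ± 0.29) were also lower, at limma FDR 0.0198, 0.0125 and 0.0395; Sox11 and Sox4 are known from immature neural cells. Phox2a (0.05, FDR 0.959), Hand2 (-0.18, FDR 0.52), Gata3 (-0.66, FDR 0.319) and Gata2 (1.03, FDR 0.128) did not pass. Gata2 passed with Th as a continuous covariate (FDR 0.000884), with array weights (FDR 0.0339) and without TIM-5 (FDR 0.0475), each by limma.

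The adrenergic signature used by the study (377 listed genes, 375 in the table, 273 tested) had 19 higher and 48 lower genes and a median of -0.05 (backgrounds 6.78% higher and 7.39% lower). Its mesenchymal signature (470 listed, 466 in the table, 247 tested) had 27 higher and 3 lower genes and a median of 0.20. Both signatures were chosen by the study and are not independent evidence of a direction. The AP-1 member Fosl2 was higher by 1.03 ± 0.21 (limma FDR 0.014); it was the only one of 3 tested mesenchymal factors to pass. The receptor kinases and neurotrophin receptors had no called gene among 7 tested by limma, with 1 at an unadjusted p below 0.05. Alk and Ret did not pass.

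Of the factors known to act on Th transcription, 4 of 10 tested genes were higher (background 6.78%), with a median of 0.74. Nr4a1, an orphan nuclear receptor induced as an immediate early gene, was 2.19, 8.01, 4.95 and 6.04 FPKM in TI-1 to TI-4 and 1.60, 1.07, 0.527 and 2.75 FPKM in TI-5 to TI-8. In TIM it was 14.8, 18.9, 49.4 and 10.03 FPKM on the Th-high and 2.55, 1.41, 1.88 and 1.90 FPKM on the Th-low side. Only TI-1 and TI-8 broke the separation, and the difference was 2.07 ± 0.33 (limma FDR 0.0113). Junb (1.01 ± 0.22, FDR 0.0145), Egr1 (1.43 ± 0.43, FDR 0.0366) and Epas1, the oxygen-regulated HIF-2 alpha subunit (1.01 ± 0.26, FDR 0.0233), were also higher by limma. Fos differed by 1.46 (FDR 0.0573) and Jun, Jund, Atf2, Sp1 and Hif1a did not pass. Nr4a1 was 1.68 to 21.5 FPKM across the 3 AG glands, so it also varied among glands of 1 group. Of 13 hypoxia response genes none was higher and 2 were lower (background 7.39% lower). These were the oxygen-sensing prolyl hydroxylase Egln3 (-1.50 ± 0.47, limma FDR 0.0419) and Slc16a3, a lactate exporter (-0.90 ± 0.22, FDR 0.0202).

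The S and G2/M phase genes are those whose transcripts peak while cells copy and divide their genome. Of 94 listed genes 78 were tested; 69 were lower in Th-high tumors, none was higher and 9 did not pass (background 7.39% lower). All 78 had a negative difference in TI and in TIM, with medians of -0.65 and -1.05 and -0.86 over the 16 tumors. Without TIM-7 and TIM-8 none of the 78 passed by limma, and the median was -0.82 and 76 had an unadjusted p below 0.05; without TI-1, TIM-1 and TIM-4, 14 passed and the median was -0.78. The mean log2(FPKM + 1) of all 94 genes was 1.45, 1.08, 2.07 and 1.76 in TI-1 to TI-4 and 1.83, 2.09, 2.62 and 2.27 in TI-5 to TI-8. It was 0.36, 0.77, 1.12 and 1.29 in TIM-1 to TIM-4 and 1.81, 1.89, 2.03 and 1.69 in TIM-5 to TIM-8, without overlap. The glands, in which few cells divide, lay at 0.776 to 0.825 in AG and 0.416 to 0.517 in AGM. TIM-1 was below every gland and TIM-2 was next to the AG glands on this measure.

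Rrm2, the small subunit of ribonucleotide reductase that makes deoxynucleotides for S phase, on chromosome 12 (24757811 to 24764145, plus strand), showed the largest fall among genes named by rule. It was 3.41, 1.94, 17.5 and 9.35 FPKM in TI-1 to TI-4 and 23.7, 34.6, 56.5 and 21.7 FPKM in TI-5 to TI-8. In TIM it was 0.432, 1.24, 3.30 and 5.82 FPKM on the Th-high and 12.3, 16.1, 21.97 and 11.48 FPKM on the Th-low side. The sides overlapped in neither model, which held for 68 of the tested genes in this direction (0.843%). The difference was -2.29 ± 0.37 (limma FDR 0.0113), close to equal in TI (-2.21) and TIM (-2.36), and -2.24 without TIM-7 and TIM-8. Chaf1b, a chromatin assembly subunit, Cdc6, a replication licensing factor, and Fen1, a flap endonuclease, likewise did not overlap in either model (-1.05, -0.92 and -1.002, each with limma FDR 0.0125 or below). Top2a, the topoisomerase of dividing cells, was lower (-1.54 ± 0.31, FDR 0.0137), as were Mcm5 of the replicative helicase (-1.52 ± 0.31, FDR 0.0141) and Birc5, encoding survivin (-1.24 ± 0.27, FDR 0.0152).

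The promoters of such genes are known for 2 sequences, the cell cycle homology region and E2F sites, and the examples are shown because the list moved as a unit. Capitals mark the homology region TTTGAA in Cdk1, Top2a, Mki67 and Ccnb2 and the E2F sequence TTTCGCGC in Mcm5, where an opposite-strand copy of TTTGGCGC overlaps it. The windows, 5' to 3' on the strand of the gene in GRCm39, are chr10:69188796-69188825 (minus), chr11:98915177-98915206 (minus), chr7:135318207-135318236 (minus), chr9:70328986-70329015 (minus) and chr8:75835973-75836002 (plus).
Cdk1: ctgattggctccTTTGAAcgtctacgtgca
Top2a: ctattggtccatTTTGAAgattctcccgcc
Mki67: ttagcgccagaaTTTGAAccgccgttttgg
Ccnb2: cagggactagaaTTTGAAaataagactgta
Mcm5: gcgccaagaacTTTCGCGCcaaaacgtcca
On either strand, TTTGAA was in 33 of the 63 tested S and G2/M genes with a window (52.4%), against 11.1% of tested genes and 18.1% of all promoters. It was in 23.7% of the genes called lower and 6.53% of those called higher. The genes called lower include 69 of the S and G2/M genes, so their share is not a separate observation. CCAAT was in 74.6% of the S and G2/M windows, 39.0% of tested genes and 37.9% of all promoters. TTTGGCGC or TTTCGCGC was in 5 of 63 (7.94%) against 1.68% of tested genes and 0.833% of all promoters. These are matches of letters in a window and not measured sites.

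**Figure D4:**
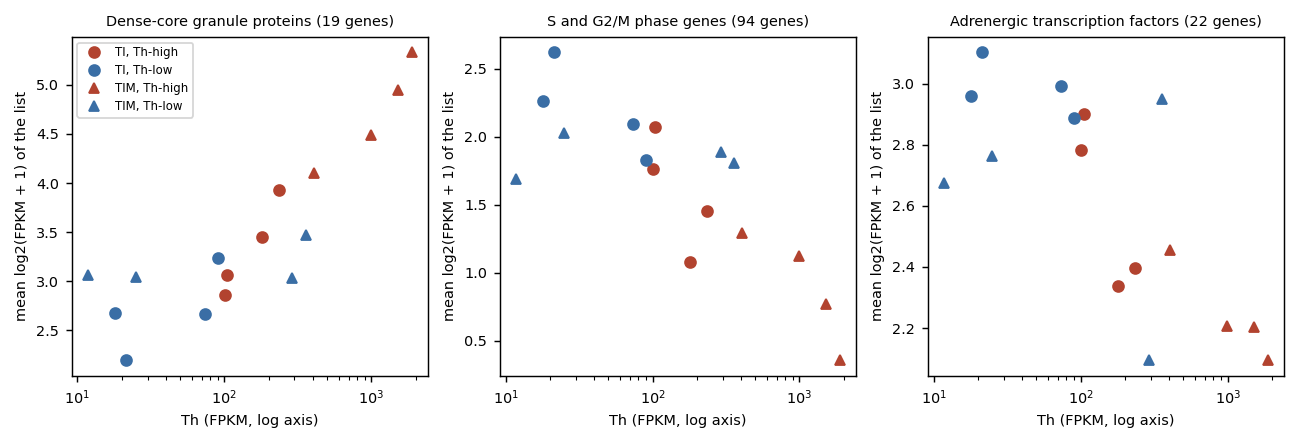
Mean log2(FPKM + 1) of 3 gene lists (vertical axes) against Th FPKM on a log axis, with TI tumors as circles, TIM tumors as triangles, Th-high in red and Th-low in blue. The granule genes are highest in TIM-1 and the S and G2/M phase genes lowest there, and the adrenergic factors are lowest in TIM-1 and in the Th-low tumor TIM-6.

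Neuronal structure genes had few calls, in both directions. Of 21 tested, 2 were higher (Syp and Syn1, both of synaptic vesicles) and 3 lower (Nefm, Nefl and Elavl4). The median was -0.41 (backgrounds 6.78% higher and 7.39% lower). Nefl, the light neurofilament chain, was 17.0, 20.9, 43.9 and 32.7 FPKM in TI-1 to TI-4 and 89.0, 107.3, 157.4 and 84.9 FPKM in TI-5 to TI-8. The TIM tumors held 28.6, 18.4, 13.1 and 56.3 FPKM on the Th-high and 60.2, 21.3, 86.9 and 99.9 FPKM on the Th-low side. The separation was complete in TI and broken by TIM-6 in TIM. The difference was -1.56 ± 0.35 (limma FDR 0.0152), and that of Nefm, the medium chain, -1.71 ± 0.46 (FDR 0.027). Syp and Syn1 thus differed in the opposite direction to Nefm and Nefl. The list of the MYC network and transgene loci, which also held Birc5, had 11 tested genes. Of these, Mxd4 was higher (0.55, FDR 0.029), and Mxd3 (-0.84, FDR 0.0309) and Birc5, already given above beside the cell cycle genes, were lower by limma. The same backgrounds apply. The mouse Mycn gene was 5.05, 1.57, 3.47 and 7.90 FPKM in TI-1 to TI-4 and 12.8, 15.6, 14.7 and 7.43 FPKM in TI-5 to TI-8. It was 1.20 to 4.38 FPKM in the TIM tumors. The difference of -1.40 within TI and of -0.03 within TIM gave -0.72 together (limma FDR 0.116). Mycn passed by limma when all 24 libraries set the spread (FDR 0.0199) and without TIM-6 (FDR 0.0469).

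By rule, the 10 largest differences in each direction were taken from the genes past the threshold with the same sign in both models, at or below 1000 FPKM in every library. The 10 higher genes were Pnmt, Resp18, Prl2c3, Vgf, Chgb, Ghrh, Ptprn, Egr4, Nr4a1 and Cd9, from 3.86 to 2.01 on the log2 scale. Resp18, a protein of the regulated secretory pathway, was 85.1 to 596.7 FPKM in the Th-high and 1.15 to 37.9 FPKM in the Th-low TIM tumors. Prl2c3 has close paralogs in a gene cluster, and its value is uncertain because reads may fit several of them. Prl2c3 averaged 2.71 FPKM in Th-high and 0 FPKM in Th-low TI tumors, and 69.5 against 2.29 FPKM in TIM. Like Pnmt, it met the minimum level mainly through the Th-high tumors, so its difference is a description. Cd9, a tetraspanin, was 6.71 to 25.1 FPKM in the Th-high and 0.891 to 6.15 FPKM in the Th-low TI tumors. The 10 lower genes were Rrm2, Tlx3, Nefm, Lmnb1, Nefl, Top2a, Cbln2, Pbk, Mcm5 and Pclaf, from -2.29 to -1.51. Rrm2, Top2a, Mcm5, Pclaf and the mitotic kinase Pbk belong to DNA replication or mitosis, Lmnb1 is a protein of the nuclear lamina, Tlx3 a homeobox factor of sensory and autonomic neurons, Cbln2 a synaptic organizer, and Nefm and Nefl are neurofilament chains. Tlx3 was 0.00619 to 4.23 FPKM in the Th-high and 1.98 to 8.003 FPKM in the Th-low TI tumors, and 0 to 2.23 against 2.72 to 13.1 FPKM in TIM.

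The 5 genes with the smallest FDR in the test of the difference between the models were Ankrd2, Rtn4rl1, Grin2a, Nab2 and Kif17. Ankrd2, an ankyrin repeat protein known from muscle, was 4.53, 3.87, 14.0 and 5.99 FPKM in TIM-1 to TIM-4, 0 in TIM-5, TIM-6 and TIM-8 and 0.0278 in TIM-7, and at most 0.367 FPKM in TI. Rtn4rl1, a Nogo receptor homologue, ran in opposite directions: it was 0.474, 0.839, 1.47 and 1.28 FPKM in TI-1 to TI-4 against 2.03, 2.51, 3.43 and 2.46 FPKM in TI-5 to TI-8. In TIM it was 3.23, 2.47, 2.46 and 2.21 FPKM on the Th-high and 0.937, 1.29, 0.623 and 0.432 FPKM on the Th-low side, without overlap in either model (limma difference 1.85, FDR 0.00997). Nab2, a corepressor of the EGR factors, was 16.7, 12.6, 11.1 and 4.94 FPKM on the Th-high and 0.604 to 1.51 FPKM on the Th-low side of TIM and 1.80 to 4.50 FPKM in all TI tumors (limma difference 2.62, FDR 0.0139). Grin2a, an NMDA receptor subunit, and Kif17, a kinesin motor of dendrites, were at most 0.287 FPKM in every TI tumor and separated by side in TIM. Ankrd2, Grin2a and Kif17 reached 1 FPKM, among the 16 tumors, in the 4 Th-high TIM tumors alone and so entered the test only through the group in which they are high; their values are a description and support no difference between the models. With a pseudocount of 0.1, 2 genes passed this test, Rtn4rl1 and Nab2 (both FDR 0.0307 by limma).

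The genes with the highest mean of their 2 Spearman correlations with Th (8 tumors each) were Cd99l2, Plpp5, Abhd16a, Srxn1, Pias3, Npy, Pld3, Gpr108, Yipf3 and Tuba4a, with means from 0.964 to 0.940. Npy had a rho of 0.905 in TI and 1 in TIM, Cd99l2 0.929 and 1, and Plpp5 0.976 and 0.952. This is a description over tumors that share the scaling and batch correction, and carries no test. Npy had the largest difference among them and was the only member of the catecholamine, granule or neuropeptide lists. Srxn1, sulfiredoxin, and Pld3, a lysosomal protein, differed by 1.69 and 1.96, and the other 7 by 0.55 to 1.41.

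Genes of other cell types varied among the tumors, and their part in the results above was not tested. In a bulk sample, fewer cells of a type and less RNA per cell cannot be told apart. Of the 16 adrenal cortex genes 3 were tested and none passed; their mean log2(FPKM + 1) was 0.22 to 1.099 in the Th-high and 0.22 to 0.33 in the Th-low tumors, against 4.19 to 7.25 in the glands. Their summed level was 3.72 to 26.0 FPKM in Th-high and 3.89 to 5.72 FPKM in Th-low TI tumors, and 3.76 to 19.1 against 4.30 to 4.99 FPKM in TIM. Cyp11b1, a defining enzyme of the cortex, was 1.64 FPKM in TI-1 and 1.34 FPKM in TIM-1, 0 in TI-2, TI-4 to TI-8 and TIM-8, and 76.2 to 788 FPKM in the glands (exact two-sided permutation within model p = 0.00612, adjusted p = 0.110 over 18 genes, smallest p possible 0.000408). Cyp11a1 was at or below 0.432 FPKM in every tumor. TI-1 (1.099), TIM-1 (0.92), TI-3 (0.52) and TIM-4 (0.52) had the highest means of this list. Without TI-1, TIM-1 and TIM-4, 99 genes passed, 42 higher and 57 lower.

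The means of the Schwann and adipocyte lists were highest in TIM-1 and TIM-4. The Schwann mean was 2.01 and 1.71 there against 0.889 in TIM-8, the next tumor, and the adipocyte mean was 2.24 and 1.29 against 0.745 in TIM-2. Sox10, which marks Schwann cells, was 15.3 and 8.24 FPKM there and 0 to 1.19 FPKM in the other 14 tumors. The 12 Schwann genes summed to 11.7 to 64.7 FPKM in Th-high and 5.62 to 12.6 FPKM in Th-low TIM tumors, and to 4.61 to 13.5 against 5.33 to 17.6 FPKM in TI. The 9 adipocyte genes summed to 1.55 to 58.8 FPKM in Th-high and 0.347 to 3.08 FPKM in Th-low TIM tumors, and to 1.02 to 3.30 against 1.11 to 2.51 FPKM in TI. Without TIM-1 and TIM-4, 350 genes passed; 2 synthesis and 6 granule genes were higher and 44 S and G2/M genes lower among them. Of 7 tested endothelial genes, 2 were higher (background 6.78%), and all 7 had a positive difference in both models. They were Plvap (1.40 ± 0.36, limma FDR 0.0237) and Eng (0.81 ± 0.25, FDR 0.0406), named after their values were seen. The 12 listed endothelial genes summed to 10.01 to 90.05 FPKM in Th-high against 7.78 to 16.5 FPKM in Th-low TI tumors, and to 16.1 to 34.7 against 5.39 to 22.6 FPKM in TIM. Of 10 tested macrophage genes, 2 were lower, Lyz2 (-1.25) and Cd68 (-0.66), also named after their values were seen (background 7.39% lower). The macrophage list had 9 of 10 negative differences in TI and 5 of 10 in TIM, with medians of -0.65 and 0.08. The 9 tested fibroblast and mural genes gave no call by limma, none with an unadjusted p below 0.05. The adipocyte, erythroid and muscle lists had 1 tested gene each with no call, and the lymphocyte and kidney lists none tested.

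**Figure D5:**
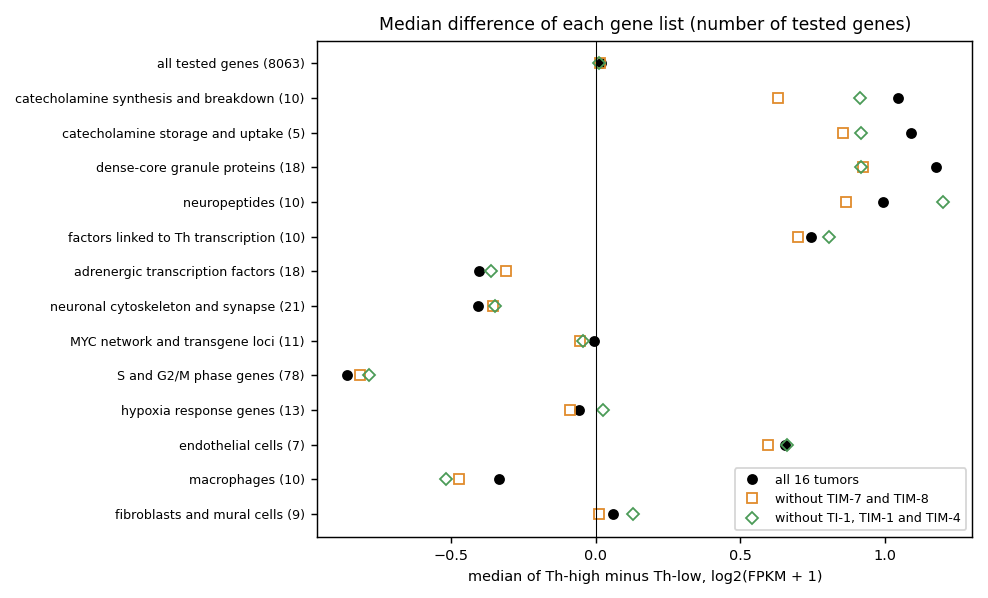
Median difference between Th-high and Th-low tumors on the log2(FPKM + 1) scale (horizontal axis) for each gene list and for all tested genes, from all 16 tumors (black), without TIM-7 and TIM-8 (orange squares) and without TI-1, TIM-1 and TIM-4 (green diamonds). The S and G2/M phase median stays between -0.86 and -0.78, and that of catecholamine synthesis moves from 1.04 to 0.63 without TIM-7 and TIM-8.

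The libraries also differed in the deposited scaling. Reads recovered from the FPKM were 246507355 to 888626365 in Th-high and 58530450 to 139545060 in Th-low TIM tumors, and 12468968 to 21353172 in TI. The 126 genes above 1000 FPKM in any library held 92.2% to 97.3% of these reads in Th-high TIM and 64.5% to 87.8% in Th-low TIM tumors, and 0.217% to 2.21% in TI. Genes of the exocrine pancreas were among them: Cpa1, a pancreatic carboxypeptidase, was 24222, 105724 and 24495 FPKM in TIM-2, TIM-3 and TIM-4, 7441 FPKM in TIM-7 and 0 in the other TIM tumors. Of 4 tested pancreas genes 1 was higher, Cela1 (0.79 ± 0.21, limma FDR 0.0237), named after its values were seen (background 6.78% higher). Outside the 126 genes every tumor held 12334076 to 23653740 reads, and no difference between the sides passed the test (exact permutation p = 0.524). Nor did the number of genes at 1 FPKM or more, 6287 to 7381, differ past it (exact permutation p = 0.601). With FPKM rescaled to the total outside the 126 genes, 1012 genes passed, 410 higher and 602 lower, 70 of the S and G2/M genes lower and 6 synthesis and 9 granule genes higher. Sequencing run, tumor location and zygosity could not be linked to single columns, so they cannot be told apart from the side. By group, TI had 6 samples in run 1, 1 in run 2 and 1 in run 3, and TIM had 3 in run 2 and 5 in run 3. Run and model are thus largely confounded, and differences between the models cannot be told apart from run.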

How the data were processed

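RNA-seq of 8 TI and 8 TIM tumors and of 8 control glands was used. Per the submitters' processing notes, reads were trimmed with cutadapt 2.8, aligned to mm39 with HISAT2 2.1.0, handled with SAMtools 1.10 and counted with featureCounts 2.0.0, and differential expression was run in edgeR 3.40. The study's methods state that a batch effect was removed from the tumor reads with ComBat-seq, which can change levels and depth. The gene annotation is not given in the sources used here. The authors deposited FPKM values for 21833 genes. The table also holds the authors' own fold changes, p-values and false discovery rates of AGM, TI and TIM against AG, which were not used. Table columns were assigned to groups by name, and 0 columns were left out.

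All FPKM values were whole multiples of 1 read within 0.01 reads (100%), so reads per library could be recovered. Depth was 12468968 to 888626365 recovered reads in the tumors. No intervals were derived from them, because they may not be the sequenced depth.

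A gene was tested when 4 or more of the 16 tumors held 1 FPKM or more (8063 genes, without Th). Differences were estimated with limma 3.58.1 in R 4.3.3 (mean-variance trend, two-sided) on log2(FPKM + 1), a scale that understates the change of low genes. The fit held model and side, or the 4 combinations of both for the values within a model and the difference between models. P-values were adjusted by the Benjamini-Hochberg method over all tested genes at 0.05. For genes below the minimum, sides were permuted exactly within each model. Scripts were tested on simulated data. Tables and plots were made with Python 3.11.15, pandas 2.3.3, numpy 2.4.6 and matplotlib 3.10.9.

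The tumors, the gene lists and the comparison were chosen with earlier results of these data known. Named genes were the tested genes of the lineage and cell state lists, the 10 largest differences in each direction past the threshold with the same sign in both models (genes above 1000 FPKM in any library and predicted gene models excluded), the 5 smallest FDR values of the model difference under the same exclusions, and the 10 highest mean Spearman correlations with Th. Promoter windows came from RefSeq and gene positions from the GRCm39 annotation. Alternatives covered the pseudocount, the minimum level, the scaling, the test, the samples setting the spread, the split at the middle and single tumors. Another 4 alternatives were added after seeing the data: leaving out genes above 1000 FPKM, TIM-7 and TIM-8, TI-1 with TIM-1 and TIM-4, and TIM-1 with TIM-4. Some genes are not reported here.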

Additional observations from a re-analysis of the deposited data

Results flagged for a closer look

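Pnmt in TI-5 was 0.901 FPKM, far from the 0.00899 to 0.0519 FPKM of the other Th-low TI tumors. Slc18a2 in TI-3 was 10.2 FPKM, against 20.0 to 22.2 FPKM in the other Th-high TI tumors. These were 2 of 64 sets of 4 tumors checked over 16 genes for a sample standing apart, where chance gives about 1 in 20.

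The contrast between Th-high and Th-low tumors differed between TIM and TI for 15 genes by limma. Among them the TIM value exceeded the TI value by 2.70 for Ankrd2, 1.85 for Rtn4rl1, 1.92 for Grin2a, 2.62 for Nab2 and 1.78 for Kif17 on the log2 scale. Ankrd2, Grin2a and Kif17 reached 1 FPKM, among the 16 tumors, in the 4 Th-high TIM tumors alone, so that the minimum level admitted them only through that group. With a pseudocount of 0.1 these 3 no longer passed (limma FDR 0.0616, 0.245 and 0.220), while Rtn4rl1 and Nab2 did (FDR 0.0307 for both).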

How the results depend on the processing

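The 1143 calls became 1082 with a pseudocount of 0.1, 1012 with FPKM rescaled outside the genes above 1000 FPKM (which moved the median gene by -0.0504), 1066 with limma-voom on recovered reads, 1318 without the tumors of Th rank 4 and 5, and 1164 without the genes above 1000 FPKM. Testing all genes with a value gave 530 calls (163 higher, 367 lower), 3 of catecholamine synthesis and 2 adrenergic factors. A minimum of 1 FPKM in all 16 tumors left 4035 genes, with 502 calls (308 higher, 194 lower), 3 adrenergic factors and 4 of 7 tested S and G2/M genes. Letting all 24 libraries set the spread gave 2274 (1195 higher, 1079 lower), Th as a continuous covariate 2262 (1228 higher, 1034 lower), and array weights 1724 (835 higher). Without TIM-7 and TIM-8, the total, the higher, the lower, synthesis, granule, adrenergic factor and S and G2/M counts were all 0. Without TI-1, TIM-1 and TIM-4, 99 genes passed (42 higher, 57 lower), with 2 synthesis, 2 granule, 1 adrenergic factor and 14 S and G2/M genes. Without TIM-1 and TIM-4, 350 passed (133 higher, 217 lower), with 2 synthesis, 2 adrenergic factor and 44 S and G2/M genes. Leaving out 1 tumor at a time gave 324 to 1386 calls (111 to 700 higher, 213 to 693 lower), 4 to 6 synthesis, 6 to 10 granule, 3 to 5 adrenergic factor and 42 to 75 S and G2/M genes. The total was 324 without TIM-7, 453 without TI-7, 520 without TIM-2, 559 without TIM-1, 585 without TIM-8 and 754 without TI-2. Within TI the leave-one-out counts were 0 to 0. Within TIM they were 317 to 1335 (266 to 909 higher, 51 to 452 lower), with 317 without TIM-1, 394 without TIM-7 and 485 without TIM-8, and 660 (392 higher) when the TIM tumors alone set the spread. The difference between models gave 6 to 40 genes (6 to 37 higher, 0 to 3 lower), 2 (2 higher) with a pseudocount of 0.1 and 20 after rescaling. Of 55 named genes 48 had passed. Of these calls, 19 were lost without TIM-7, 19 with all genes tested and 17 without TIM-1 and TIM-4. Without TI-1, TIM-1 and TIM-4, 40 were lost, and 48 without TIM-7 and TIM-8. None of the 48 reversed direction under any alternative run. Among named genes that had not passed, Rtn4rl1 and Phox2a changed sign without TIM-7 and TIM-8 (to -0.21 and -0.16). Calls were gained for Ddc and Mycn with all 24 libraries, and for Ddc and Gata2 with continuous Th and with array weights. The cause of these changes was not tested, other than that fewer genes or tumors entered some fits. The planned edgeR and DESeq2 fits on recovered reads were not run. No paired analysis was possible because the columns carry no replicate number of the labels. Values near 0 FPKM limit what can be seen of genes below the minimum.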
